A study of Mus musculus with 1037 samples.

Results

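The NR4A family of orphan nuclear receptors was followed through single cells of the mouse hair follicle epithelium. Its members *Nr4a1*, *Nr4a2* and *Nr4a3* were found by their Ensembl identifiers in the table of estimated counts, so that 3 of 55335 genes are described. They were selected on measured values, namely their levels by group and their relation to *Fos* and *Egr1* by cell in an earlier analysis of the same counts, and these are therefore given as a description, without a test. All cells came from wild-type mice and were sorted singly into wells for Smart-seq2, which reads full-length transcripts without molecular identifiers. Late anagen (AnaVI) is represented by LOS, the lower outer root sheath (ORS), and by MOS and UOS, which the labels both place in the upper-middle ORS. CatVI is represented by plates whose titles begin with P17f and carry the words PhagoHFSC or NonPhagoHFSC and alive or apop, and CatVII by the sorts OSalive and OSapop, all from the upper ORS. According to the study's methods, mice of a stage were pooled, cells positive for Sca1 or for CD31, CD117, CD140a or CD45 were gated out, CD34+ Itga6+ cells were kept, and alive cells were negative for annexin V. No animal is named for any cell. Each group is thus 1 pool without replicates, intervals cover counting error only, and stage, sort and library cannot be told apart. In UOS, OSalive and OSapop, 40, 68 and 52 well labels were carried by more than 1 cell. These sorts therefore probably span more than 1 plate, which the labels do not name, and no split by plate was made.

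NR4A proteins are transcription factors without a known classical hormone ligand, because bulky side chains fill the pocket in which other nuclear receptors hold theirs. Their activity is thought to be set mainly by how much of them is made. As immediate early genes they are transcribed within minutes of a stimulus, together with *Fos*, a subunit of the AP-1 dimer, and *Egr1*, a zinc-finger factor that answers growth factor signals. NR4A1 and NR4A2 can bind DNA alone or paired with a retinoid X receptor (RXR), whereas NR4A3 is not known for that pairing. NR4A1 can also leave the nucleus and bind BCL2 at mitochondria, and in macrophages it is known as a target of signals from apoptotic cells. Immediate early genes are equally known to be switched on while tissue is digested with enzymes, as was done here before the sort. By the study's methods, skin was first kept in warm collagenase, after which lower ORS cells were scraped off. Upper follicle cells were released only after a further step in warm trypsin, so the digestion differed by region. The part of this step in the values was not tested.

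The members lie on 3 chromosomes of GRCm39, the assembly that the authors call mm39. *Nr4a1* (ENSMUSG00000023034.7) spans chr15:101151980-101172681 on the plus strand and has 7 exons in a canonical transcript of 2548 bases. *Nr4a2* (ENSMUSG00000026826.13) spans chr2:56996842-57014331 on the minus strand, with 8 exons and 4764 bases. *Nr4a3* (ENSMUSG00000028341.9) spans chr4:48045153-48086447 on the plus strand, with 8 exons and 5722 bases. The annotation places 3 long non-coding RNA genes over *Nr4a1* and 1 over *Nr4a3*. Smart-seq2 does not mark the strand, so reads from these genes could not be told from those of the receptors.

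The promoters are shown because the cAMP response element is the textbook route by which NR4A genes are switched on. They are the 250 bases before the RefSeq start (GRCm38.p6 table), placed in GRCm39 by exact match at chr15:101164477-101164726 (plus strand), chr2:57014016-57014265 (minus strand) and chr4:48045055-48045304 (plus strand). Capitals mark TGACG, the core of the element, and CGTCA, the same letters on the other strand.
Nr4a1: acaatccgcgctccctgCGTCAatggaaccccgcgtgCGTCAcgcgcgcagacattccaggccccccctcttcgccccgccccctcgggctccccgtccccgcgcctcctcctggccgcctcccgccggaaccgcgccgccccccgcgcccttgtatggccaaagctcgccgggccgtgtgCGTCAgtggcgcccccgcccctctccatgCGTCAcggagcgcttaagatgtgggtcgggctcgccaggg
Nr4a2: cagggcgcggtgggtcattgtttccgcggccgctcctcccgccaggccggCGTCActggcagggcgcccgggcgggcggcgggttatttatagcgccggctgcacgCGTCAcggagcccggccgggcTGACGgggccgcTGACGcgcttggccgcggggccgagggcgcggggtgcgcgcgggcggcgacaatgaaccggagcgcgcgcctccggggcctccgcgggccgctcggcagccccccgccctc
Nr4a3: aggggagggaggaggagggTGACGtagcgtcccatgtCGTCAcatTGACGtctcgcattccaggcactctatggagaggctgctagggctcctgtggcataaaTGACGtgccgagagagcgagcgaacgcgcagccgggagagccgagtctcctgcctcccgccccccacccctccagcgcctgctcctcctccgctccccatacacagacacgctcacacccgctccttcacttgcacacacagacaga
Each of the 3 windows held 4 such cores, counted on both strands over 300 bases that also include the 50 bases after the start. Among 32851 promoters of that length, 20.8% held at least 1 core and 0.231% held 4 or more. The full palindrome TGACGTCA, which contains the core on each strand, was in none of the 3 windows and in 1.79% of all promoters. Also without a match were the AP-1 site TGACTCA (5.2% of all promoters), the NR4A site AAAGGTCA (1.51%), the EGR site GCGTGGGCG (0.612%), the CArG box (1.63%) and the MEF2 site (0.557%), on either strand. The windows were rich in G and C, at 72.3%, 81.7% and 64.7%, and the matches were counted without correction for this. The RefSeq start lay 67 bases from that of the canonical GENCODE transcript for *Nr4a1* but 7769 bases for *Nr4a2*, so that the window of *Nr4a2* is not next to its canonical start. A match is a run of letters and was not tested as a binding site.

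Of 1035 cells with a known group and counts, 463 had the 2000 or more detected genes that the study required. These were 83.6% of the sorted cells of UOS and 80.1% of OSalive, the largest groups, with 39 cells of LOS, 38 of MOS and 92 of OSapop, and 19 and 9 on plates 1 and 2 (PhagoHFSC_alive), 15 on plate 5 (PhagoHFSC_apop) and 14 on plate 6 (NonPhagoHFSC_apop) of P17f. Plates 3 and 4 (NonPhagoHFSC_alive) had none. The shallowest passing cell held 14169 gene counts and the deepest 5896655, and the median of a group ranged from 90483 on plate 6 to 2182588 in OSalive. Levels are given as CPM, the counts of a gene summed over the cells of a group per 1000000 counts of all genes. A single gene without a symbol took 56.3% to 66.5% of the counts of a group, which holds every CPM down. Every passing cell of UOS, OSalive, OSapop, LOS, MOS and plates 5 and 6 held at least 2 of 10 ORS and bulge markers, as did 17 of 19 on plate 1 and 8 of 9 on plate 2. *Cd34*, the bulge stem cell antigen used in the gate, was present in most cells of UOS and OSalive, but in 1 of 19 on plate 1, 1 of 9 on plate 2, 1 of 15 on plate 5 and 1 of 14 on plate 6. In LOS, 20 of 39 cells held at least 2 of 5 fibroblast markers. A pair of OSapop cells had a correlation of 0.94 between their log counts, against 0.515 for the next pair of that group. They carried 8 and 2 counts of *Nr4a1*, and without the shallower cell its share in OSapop was 30.8% in place of 31.5%.

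*Nr4a1* was the member that these cells contained, and it was highest in the CatVII cells labelled alive. Its level was 109.2 CPM in OSalive (95% interval 108.01 to 110.4), 32.4 in UOS (31.1 to 33.8), 30.9 in OSapop (29.7 to 32.3), 18.1 in LOS (15.6 to 20.8) and 16.5 in MOS (13.9 to 19.5). The P17f plates gave 23.9 CPM on plate 6, 19.9 on plate 2, 16.96 on plate 1 and 9.34 on plate 5. Only the steps at the top and bottom of this order were larger than the counting intervals: OSalive stood apart from UOS and plate 5 (6.73 to 12.6) from MOS, while each of the other neighbours overlapped. OSalive alone held 86.2% of the 36419 *Nr4a1* counts of all passing cells.

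The level came from a minority of cells. The lowest and the median cell had 0 CPM in each of the 9 groups, and the highest cell had 1623 CPM in OSalive, 1450 in OSapop, 681 in UOS, 356 on plate 6, 182.99 in MOS, 149.9 on plate 2, 140.8 in LOS, 98.3 on plate 5 and 85.4 on plate 1. Among cells with a count, the median was 46.2 CPM in OSalive, 34.9 in UOS and 24.2 in OSapop, so that the groups overlapped over most of their range and differed at the top. A level of 100 CPM or more was reached by 19 cells of OSalive (15.2%), 15 of UOS (13.4%), 6 of OSapop (6.52%) and 2 of MOS (5.26%). LOS and plates 2 and 6 had 1 such cell each (2.56%, 11.1% and 7.14%). At this cut OSalive and UOS were thus close. In OSalive, 5 cells held at least 50% of the counts, in UOS 4 and in OSapop 2. On the CatVI plates the values rested on 1 cell each, which gave 66.7% of the *Nr4a1* counts of plate 1, 88.9% of plate 2, 76.2% of plate 5 and 63.6% of plate 6. Without that cell the plates fell to 6.64, 2.50, 2.40 and 9.08 CPM.

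**Figure D1:**
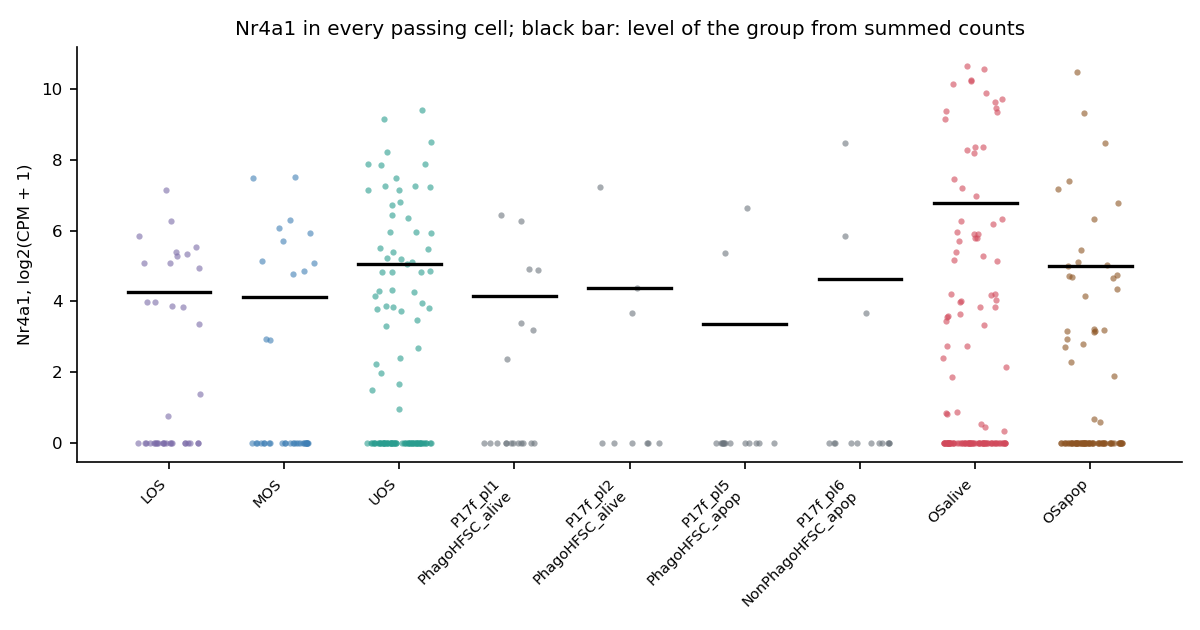
*Nr4a1* in each passing cell, as log2(CPM + 1), for the 9 groups; each point is a cell and the black bar is the level of the group from summed counts. Most cells of every group lie at 0, and the cells with the highest values, up to 1623 CPM, are in OSalive.

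The share of cells with *Nr4a1* did not follow the level. A count was found in 56 OSalive cells (44.8% of the group, 35.9% to 53.95%) and in 50 UOS cells (44.6%, 35.2% to 54.3%), although the level in OSalive was 3.37 times that in UOS. LOS had 17 of 39 (43.6%), MOS 12 of 38 (31.6%) and OSapop 29 of 92 (31.5%). The P17f plates had 7 of 19, 3 of 9, 2 of 15 and 3 of 14 cells on plates 1, 2, 5 and 6. OSalive was sequenced most deeply, so cells were also thinned to 50000 counts. Cells with fewer counts were left out at this depth, here and below. These were 16 of 39 cells in LOS, 6 of 38 in MOS, 7 of 92 in OSapop and 1 each in UOS and OSalive. The shares then were 31.5% in OSalive (23.4% to 40.4%) and 29.7% in UOS (21.4% to 39.1%), with 26.1% in LOS, 25% in MOS and 22.4% in OSapop. At this depth 12.9% of OSalive cells kept 10 or more counts of *Nr4a1*, against 4.50% in UOS and 3.53% in OSapop, and the highest cell kept 86, 32 and 72. The median count of the cells that kept *Nr4a1* was 5 in both OSalive and UOS, and their mean was 19.3 against 6.58, so the difference in level lay in the highest cells.

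**Figure D2:**
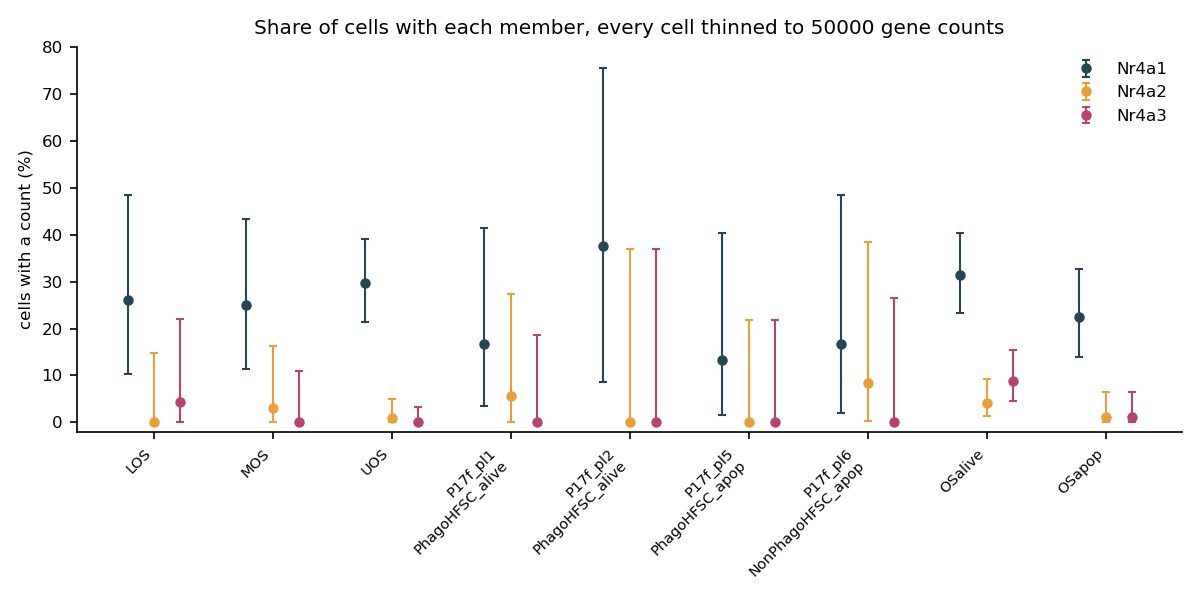
Percentage of cells with at least 1 count of *Nr4a1*, *Nr4a2* or *Nr4a3* in the 9 groups, with cells thinned to 50000 gene counts and shallower cells left out. Points are shares and bars exact 95% binomial intervals. *Nr4a1* lies between 13.3% and 37.5%, with overlapping intervals, and the other members lie near 0 in most groups.

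Between the sorts of CatVII and AnaVI, the log2 ratio of *Nr4a1* was 1.75 for OSalive to UOS (1.69 to 1.82). Of 14159 genes with 100 or more counts, 11.5% were higher by a log2 ratio of 1 or more in OSalive and 26.6% lower, and the median gene stood at -0.32. Scaling by the median of ratios put *Nr4a1* at 2.08 and edgeR's TMM factors at 2.19. *Fos* and *Egr1* did not share this difference: their log2 ratios were 0.01 (188.4 against 186.8 CPM) and 0.16 (233.2 against 208.2 CPM). OSapop was lower than OSalive by 1.82 on the log2 scale for *Nr4a1* (ratio -1.82, -1.88 to -1.76), beside -0.83 for *Fos* and -0.66 for *Egr1*. In that comparison 10.6% of 13886 genes were higher by 1 or more and 11.3% lower, and the median gene stood at 0.12. OSapop and UOS differed by a ratio of -0.07 (-0.15 to 0.02), which became 0.15 with the median-of-ratios scaling, while 9.5% of 12329 genes were higher by 1 or more and 24.4% lower. For both CatVII sorts against MOS and UOS together, *Nr4a1* stood at 1.61 (1.55 to 1.67), where 11.5% of 14707 genes were higher by 1 or more and 24.1% lower. Both CatVII comparisons share the OSalive cells.

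Within AnaVI, *Nr4a1* was lower in MOS than in UOS, with a log2 ratio of -0.97 (-1.23 to -0.73), and lower in LOS than in UOS, with -0.84 (-1.06 to -0.63). Of all genes, 6.56% were higher by 1 or more in MOS and 23.2% lower, and 14.1% were higher in LOS and 14.3% lower. The MOS and UOS sorts carry the same labels for region and stage, and *Egr1* went the other way between them, at 0.89. The LOS value depended on 1 cell that gave 58.2% of its *Nr4a1* counts. That cell had 11424 detected genes, 4 of 5 fibroblast and 4 of 4 endothelial markers and no *Krt14*, and without it and the 2 UOS cells of more than 10000 genes the ratio was -1.70. At a depth of 50000 counts, which 23 LOS cells reached, it was -2.03. Within CatVI, plate 2 against plate 1, the only plates that share a label, gave 0.23 (-0.32 to 0.76), and -1.41 without the top cell of each plate. The plate labelled PhagoHFSC_apop stood at -0.93 (-1.47 to -0.42) against the plates labelled PhagoHFSC_alive, and NonPhagoHFSC_apop at 1.36 (0.71 to 2.001) against PhagoHFSC_apop, on 44 and 42 counts. Together the 4 plates stood at -1.03 against UOS (-1.23 to -0.83), where 24.9% of 11497 genes were lower by 1 or more and 12.9% higher. With sums that rest on 1 cell per plate, the order of the CatVI plates is not established.

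*Nr4a2*, best known for its need in midbrain dopamine neurons, was near the limit of detection. It had 480 counts in 27 of the 463 cells, of which 14 cells and 426 counts were in OSalive, at 1.48 CPM (1.34 to 1.63). The remaining counts were 20 in 3 cells of OSapop, 15 in 1 cell of plate 6, 5 in 2 cells of UOS, 5 in 2 of LOS, 4 in 2 of plate 1, 3 in 2 of plate 2, 2 in 1 of MOS and 0 on plate 5. Plate 6 came highest by level, at 8.15 CPM (4.56 to 13.4), but only through that cell, which had neither *Fos*, *Egr1* nor *Nr4a1*. OSalive and the groups after it overlapped from neighbour to neighbour. The log2 ratio of OSalive to UOS was 4.34 (3.11 to 5.97), and that of OSapop to OSalive was -2.44 (-3.16 to -1.79). With each cell given equal weight, the latter was 0.02, as 1 OSapop cell of few counts reached 141.2 CPM. At 50000 counts per cell, *Nr4a2* was left in 5 OSalive cells (4.03%) and in at most 1 cell of any other group.

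*Nr4a3*, which is strongly induced in activated lymphocytes and muscle, was equally scarce. It had 622 counts in 25 cells, with 568 counts in 16 cells of OSalive at 1.98 CPM (1.82 to 2.15). LOS was nominally higher at 2.61 CPM (1.74 to 3.78), but all 28 of its counts lay in the cell with fibroblast and endothelial markers described above. The level was 0.22 CPM in OSapop, 0.12 in MOS and 0.059 in UOS, and plates 5 and 6 had 0 counts, which allow up to 0.667 and 1.63 CPM. In OSalive the highest *Nr4a3* count, 90, was in a cell that also held 5 of 8 immune markers, and this cell gave 15.8% of the counts there. The log2 ratio was 5.08 for OSalive to UOS (3.71 to 6.96) and -3.17 for OSapop to OSalive (-3.99 to -2.46). Per kilobase of transcript, the levels over all passing cells were 30.9 CPM for *Nr4a1*, 0.235 for *Nr4a3* and 0.218 for *Nr4a2*.

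Where the rarer members occurred, *Nr4a1* was mostly present too. Of the 25 cells with *Nr4a3*, 22 had *Nr4a1*, and of the 27 with *Nr4a2*, 18 did, beside 38.7% of all 463 cells. In OSalive these were 15 of 16 and 12 of 14 cells, and 5 cells contained all 3 members. The Spearman correlation by cell in OSalive was 0.51 between *Nr4a1* and *Nr4a3*, 0.38 between *Nr4a1* and *Nr4a2* and 0.28 between *Nr4a2* and *Nr4a3*. The cell with the most *Nr4a1*, at 1623 CPM, had 39.6 CPM of *Nr4a2* and 10.97 CPM of *Nr4a3*. The cells of a group share a pool, libraries and a range of depth, so these values describe the cells and carry no p-value.

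By cell, *Nr4a1* went with *Fos* and *Egr1* in each of the 8 groups of 14 or more cells. The Spearman correlation with *Fos* was 0.63 in OSalive, 0.53 in OSapop, 0.51 in MOS, 0.45 in UOS and 0.30 in LOS. With *Egr1* it was 0.66 in OSalive, 0.53 in UOS, 0.38 in OSapop, 0.35 in MOS and 0.33 in LOS. On the plates it was 0.75, 0.62 and 0.60 with *Fos* and 0.49, 0.42 and 0.23 with *Egr1* for plates 1, 5 and 6, over 19, 15 and 14 cells. The correlation of *Nr4a1* with depth was 0.04 in OSalive, -0.08 in UOS, 0.11 in LOS and 0.20 in OSapop. In OSapop the cells with *Nr4a1* were also the deeper ones, with a median of 669533 counts against 357371. With cells thinned to 50000 counts, the correlation with *Fos* and *Egr1* was 0.60 and 0.64 in OSalive and 0.44 and 0.51 in UOS. It was 0.56 and 0.28 in OSapop, and in LOS that with *Egr1* was -0.05 over 23 cells. Among cells that contained both genes, it was 0.63 and 0.70 in OSalive and 0.31 and 0.53 in UOS, so the amounts also moved together there.

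**Figure D3:**
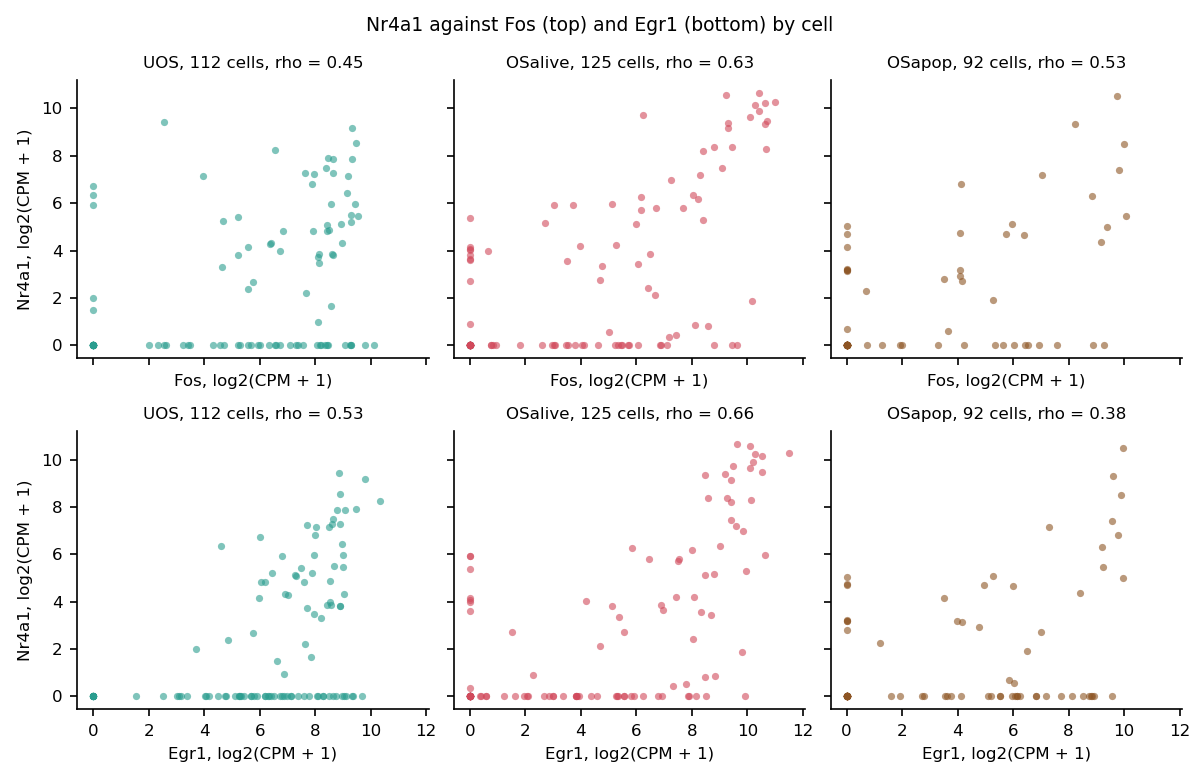
*Nr4a1* against *Fos* (top row) and *Egr1* (bottom row) in the cells of UOS, OSalive and OSapop, all as log2(CPM + 1); each point is a cell, and the Spearman rho stands above each panel. In OSalive the highest *Nr4a1* cells lie at high *Fos* and *Egr1* (rho 0.63 and 0.66), and many cells with either gene lie at 0 for *Nr4a1*.

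Cells that contained both *Fos* and *Egr1* held nearly all of the *Nr4a1* transcripts. Of such cells in the 9 groups, 63.4% had *Nr4a1* (56.6% to 69.9%), and they held 97.5% of its counts. The share was 27.8% of cells with *Fos* only (14.2% to 45.2%), 18.1% of those with *Egr1* only (11.3% to 26.8%) and 12.3% of those with neither (6.69% to 20.1%). OSalive gave 43 of 61 cells with both genes and 4 of 27 with neither, OSapop 18 of 26 and 4 of 32, and UOS 45 of 78 and 0 of 9. At 50000 counts per cell the same shares were 63.3% and 10.9% in OSalive, 55% and 9.76% in OSapop, and 43.5% and 0% in UOS, where the exact interval of 0 of 13 cells reached 24.7%. In cells with both genes the mean *Nr4a1* level was 234.3 CPM in OSalive, 120.8 in OSapop and 56.8 in UOS. No count of *Nr4a1* was found in the other 18 of 61 such cells of OSalive and 33 of 78 of UOS, which does not show that it was absent there. All 14 OSalive cells with *Nr4a2* had both genes, as did 14 of the 16 with *Nr4a3*. Over all groups the cells with both held 90.2% of the *Nr4a2* and 97.3% of the *Nr4a3* counts. OSalive alone held 88.75% and 91.3% of these counts. The Spearman correlation of *Nr4a2* with *Fos* was 0.36 in OSalive, 0.05 in LOS, 0.02 in OSapop, -0.10 in UOS and -0.15 in MOS. With *Egr1* it was 0.40, 0.25, 0.20, -0.14 and -0.11 in the same order. Outside OSalive these rest on at most 3 cells with *Nr4a2* per group, too few to show a relation.

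**Figure D4:**
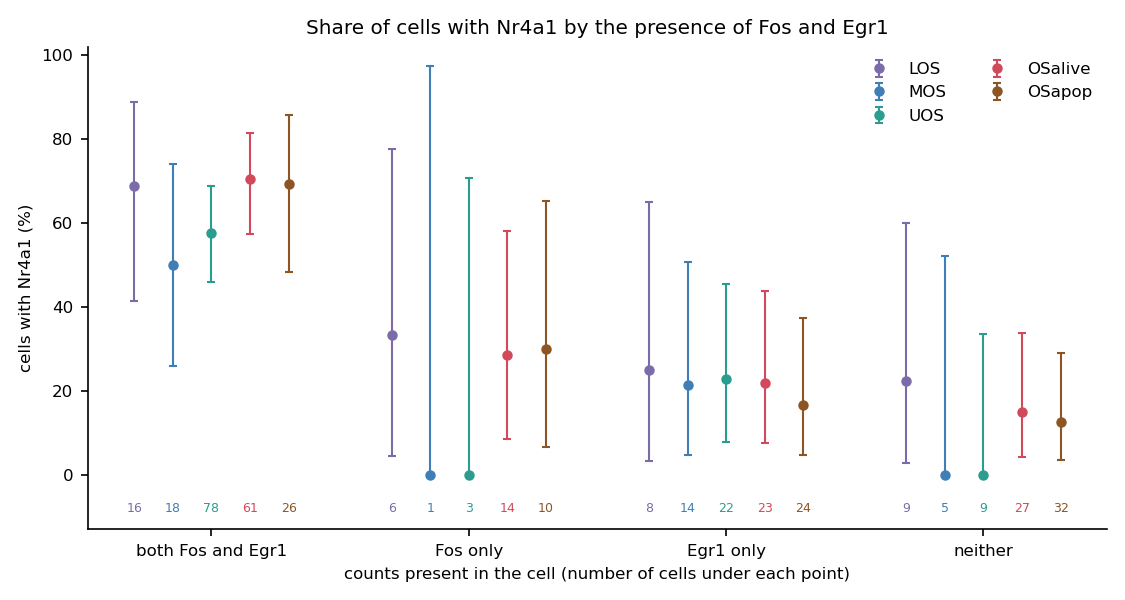
Percentage of cells with *Nr4a1* among cells that contained both *Fos* and *Egr1*, either alone, or neither, in the 5 groups of 30 or more cells; bars are exact 95% binomial intervals and the numbers give the cells behind each point. The shares are 50% to 70.5% with both genes and 0% to 22.2% with neither.

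The ORS markers *Krt14* and *Cd34* did not separate cells with and without *Nr4a1* in OSalive and UOS. *Krt14*, a basal keratin, was present in 51 of 56 OSalive cells with *Nr4a1* and in 66 of 69 without, and in all 50 and 61 of 62 cells of UOS. *Cd34* was present in 36 of 56 and 49 of 69 cells of OSalive and in 47 of 50 and 59 of 62 of UOS. In LOS the cells with *Nr4a1* differed more, with *Krt14* in 11 of 17 against 20 of 22, at least 2 of 8 immune markers in 6 of 17 against 2 of 22, and a median depth of 185532 against 51926 counts. The part of these other cells in the LOS values was not tested. In OSalive 1 cell held 2 or more immune markers and none held 2 endothelial or 2 melanocyte markers, and *Nr4a1* was at 102.4 CPM in the remaining cells. Fibroblast markers were found in 28 OSalive cells, whose *Nr4a1* level of 31.1 CPM was below the 132.6 CPM of the other 97.

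The genes that most resembled *Nr4a1* by cell were mostly other immediate early genes. The 9440 genes with a symbol and a count in 75 or more cells were ranked by their mean Spearman correlation with *Nr4a1* over LOS, MOS, UOS, OSalive and OSapop. *Fos* came first at 0.49 and *Egr1* next at 0.45, followed by *Atf3* (0.43), a stress-induced repressor, *Ier2* (0.43), *Btg2* (0.41), an antiproliferative factor, *Zfp36* (0.41), which degrades cytokine mRNAs, *Jun* (0.38), the AP-1 partner of *Fos*, *Fosb* (0.37), the linker histone gene *H1f4* (0.36) and *Junb* (0.35). The relation to *Fos* and *Egr1* was known when the members were selected, so these 2 were left out of the counts. The list below was also chosen with earlier results of these data known. Its counts are thus a description and are not independent of the selection. Of the other 8 genes, 7 were on a list of immediate early genes, of which 22 had enough cells to be ranked. The list had 16 of these 22 within the first 100 ranks and 20 with a mean above 0, and its median was 0.25, beside 0.03 for all genes. *Myc* (0.02), the connective tissue growth factor gene *Ccn2* (0.02), *Klf10* (-0.03) and *Fosl2* (-0.05) did not resemble it. With cells thinned to 50000 counts, 9 of the first 10 genes stayed within the first 10, and *Junb* stood 11th. The wider count was less stable, as the 16 genes within the first 100 ranks were counted at full depth. After thinning, *Csrnp1*, *Ier3*, *Ccn1*, *Klf4* and *Socs3* of these fell out of the first 100, and *Egr3* moved into it. H1 histone genes share near-identical sequence, so the value of *H1f4* is uncertain.

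**Figure D5:**
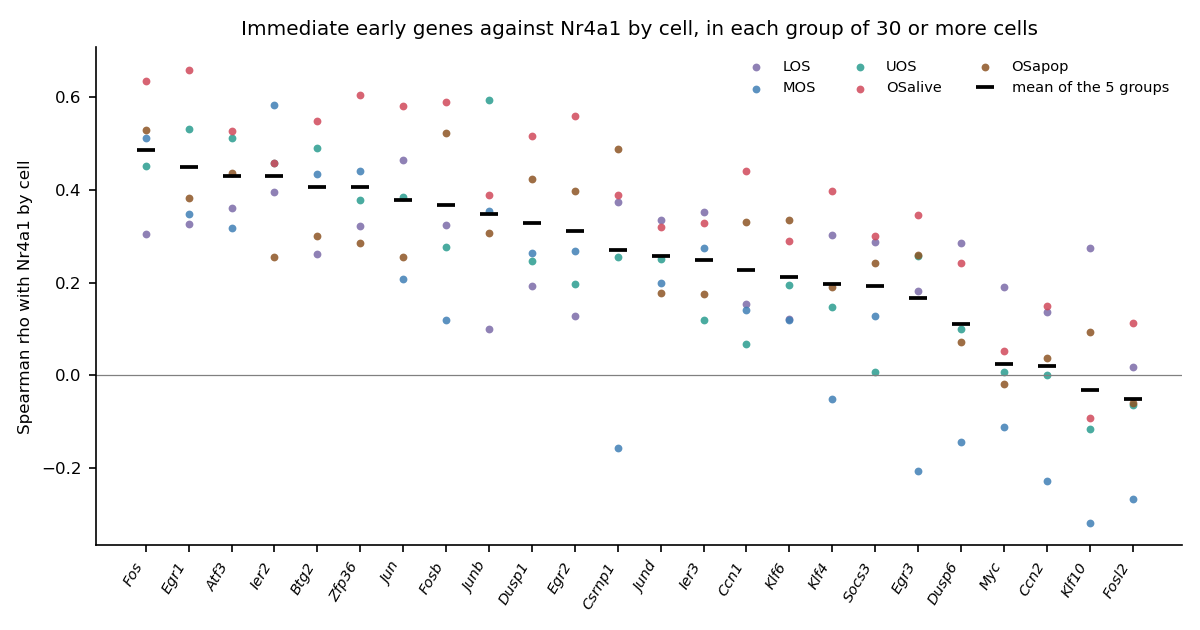
Spearman correlation with *Nr4a1* by cell for 24 immediate early genes, in the 5 groups of 30 or more cells; coloured points are groups and black dashes their mean, from *Fos* at 0.49 on the left to *Fosl2* at -0.05 on the right. OSalive lies above the mean for most genes.

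Likeness over the 9 group levels named other genes. The 5 highest Pearson correlations of log2(CPM + 1) with *Nr4a1* were those of *Kcnc4*, a potassium channel gene (0.87), *Mrtfa*, the actin-regulated coactivator of SRF (0.84), *Clec11a* (0.83), *Tenm3* (0.82) and *Max*, the partner of MYC (0.82). Of these, 2 ranked within the first 5 by Spearman correlation as well. With 9 points, of which OSalive is the farthest out, many of the 9440 genes can reach such values.

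Immediate early genes stood in both directions between OSalive and UOS. Of the 30 genes listed, 8 were higher by a log2 ratio of 1 or more and 5 lower, beside 11.5% and 26.6% of all genes, and the median was 0.16 against -0.32. Among its most abundant genes, *Fosb* stood at 1.05, *Dusp1*, a MAP kinase phosphatase, at 0.94 and *Jun* at 0.12, and *Ccn1*, a YAP target, at 2.97 (104.9 against 13.4 CPM). The 5 that were lower were *Ier5* (-3.22), *Btg2* (-1.84), *Ier2* (-1.79), *Ier3* (-1.65) and *Junb* (-1.27). Of these, *Btg2*, *Ier2* and *Junb* were among the 10 genes most like *Nr4a1* by cell. *Fosb* and *Atf3*, also among those 10, were higher by a log2 ratio of 1 or more, and *Zfp36* was higher by less. The genes most like *Nr4a1* by cell thus went both ways in this ratio. For OSapop to OSalive, 2 of the 30 were higher and 6 lower, beside 10.6% and 11.3% of all genes, with a median of -0.63 against 0.12, and *Dusp1* stood at -1.16, *Fosb* at -0.97 and *Jun* at -0.71. The 2 that were higher were *Arc*, a neuronal immediate early gene, at 5.30 (14.4 against 0.365 CPM) and *Ier5* at 2.28, the latter named after its value was seen. *Arc* had a count in only 14 of the 463 cells of all groups. *Fosl1* was at 0.473 CPM in OSalive and 0.073 in UOS. *Ccn1*, *Fosb* and *Dusp1* were, like *Nr4a1*, higher in OSalive than in both UOS and OSapop.

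Among the factors that are known to switch NR4A genes on, *Nfatc1* was higher in OSalive than in UOS and *Crem* lower. Of 17 genes for CREB, MEF2, SRF, NFAT and their coactivators, 1 was higher and 3 lower by 1 or more in OSalive, beside 11.5% and 26.6% of all genes, with a median of -0.12 against -0.32. With median-of-ratios scaling the median of these factors was 0.21. *Nfatc1*, a calcium-regulated factor known for its role in bulge stem cell quiescence, was the one that was higher, at 142.97 against 24.3 CPM (log2 ratio 2.56, 2.49 to 2.63), and it did not differ in that way between OSapop and OSalive (0.04). *Crem*, which includes the cAMP-induced repressor ICER, was lower at -4.42, from 0.129 against 2.77 CPM. *Elk4* (-0.51), *Mef2a* (-0.35), *Mef2d* (0.04) and *Nfatc3* (0.52) stayed within a factor of 2, and *Mef2c* had 0.258 against 0.702 CPM.

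Among the partners, *Rxra* was at 82.3 CPM in OSalive, 85.8 in UOS and 105.4 in OSapop and was found in 435 of the 463 cells. *Rxrb* was at 5.76, 9.01 and 6.62 CPM, and *Rxrg* had counts in 1 cell. *Bcl2* was at 5.59, 8.14 and 10.7 CPM, with a log2 ratio of 0.93 for OSapop to OSalive (0.81 to 1.06). Of 14 genes that NR4A receptors are known to regulate in other tissues, 6 had 100 or more counts over OSalive and UOS, and 2 of these were higher by 1 or more and 3 lower, beside 11.5% and 26.6% of all genes. *Ikzf2* stood at 1.11 on 1.33 against 0.615 CPM, *Tox* at -1.23 on 2.47 against 5.78 CPM and *Slc2a4*, the insulin-responsive glucose transporter, at -1.82 on 0.898 against 3.18 CPM. *Skp2* was level at -0.14, and *Slc18a2* had 0.574 against 0.146 CPM. *Pdk4* had no count in OSalive and OSapop and 2.84 CPM in UOS. Most of the list is specific to neurons, muscle or lymphocytes, and its values in keratinocytes are low.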

How the data were processed

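The estimated counts per gene were deposited by the authors without normalization. Per the labels and methods, they aligned reads with STAR 2.6 to mm39, quantified them with Salmon 1.4.0 and summed them per gene with tximport. The table held 55335 genes, 92 spike-ins and 1036 of 1037 samples. Of the identifiers, 93.3% were in GENCODE vM39.

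Counts were rounded (0.471% were not whole), spike-ins were left out, and cells were grouped by their titles. A cell of conflicting stage was not grouped. CPM of summed counts has exact Poisson intervals, ratios have exact binomial ones and shares Clopper-Pearson ones, all at 95%, for counting error only. Genes at 0 were set to 3 counts. Cells are not replicates, so no test was made. Depth was matched by thinning. Spearman correlations used log2(CPM + 1).

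The members and lists were chosen with earlier results of these data known. Genes named were the members, *Fos*, *Egr1*, the RXR genes, the 5 most abundant and the 3 of the largest CatVII to AnaVI ratio per list, the 5 most like *Nr4a1* by group and the 10 by cell; exceptions follow a list. *Myc*, *Ccn2*, *Klf10* and *Fosl2* were named after their values were seen, as were the immediate early genes that were lower in OSalive than in UOS. The same holds for those that left or entered the first 100 ranks after thinning. Alternatives concerned the denominator, cell weights, filters, depth, scaling and single cells. Python 3.11.15, numpy 2.4.6, pandas 2.3.3, scipy 1.17.1, matplotlib 3.10.9, R 4.3.3 and edgeR 4.0.16 were used, and the ratios were tested on simulated data. The authors' metadata table was not used here.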

Additional observations from a re-analysis of the deposited data

Results flagged for a closer look

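Cells under 2000 detected genes were outside all comparisons. In the 448 such cells outside plates 3 and 4, *Nr4a1* had 328 counts in 24 cells, which is 124.9 CPM (111.8 to 139.2) of their 2625541 gene counts. A large part of these counts lay in 1 cell, which the interval, for counting error only, does not cover. *Nr4a3* had 13 counts in the 448 cells, all in 1 cell, or 4.95 CPM (2.64 to 8.47). Both were noted because counts lay in cells that the report does not use, above the limit that a count of 0 allows. *Nr4a2* had 2 counts. No member had a count in the 67 and 57 cells of plates 3 and 4, which held 1104 and 27556 gene counts and so cannot show a low level.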

How the results depend on the processing

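No paired analysis was possible because each group is 1 pool, the replicate numbers only name cells, and no value comes from a test. The log2 ratio of *Nr4a1* for OSapop to OSalive, -1.82, was -1.95 with annotated genes in the denominator, -1.70 as a mean over cells, -1.96 in cells of 3000 or more genes, -1.63 at 50000 counts, -2.30 without the top cells, -1.95 with median-of-ratios and -1.998 with TMM scaling. For OSalive to UOS, 1.75, the values were 2.13 with annotated genes, 1.48 as a mean over cells, 1.63 at 50000 counts, 1.93 without the top cells, 2.08 and 2.19 with the 2 scalings. The share of cells with *Nr4a1* at 10 or more counts was 28.6% in UOS, 35.2% in OSalive and 14.1% in OSapop, and at 50000 counts 29.7% and 31.5% in UOS and OSalive. The correlation of *Nr4a1* with *Fos* in UOS was 0.31 among cells with both genes. Among the alternative values of the members' log2 ratios, 5 changed sign: *Nr4a2* for OSapop to OSalive, at 0.022 as a mean over cells, *Nr4a1* for OSapop to UOS, at 0.18 with annotated genes, 0.15 with median-of-ratios and 0.14 with TMM scaling, and *Nr4a1* for plate 2 to plate 1, at -1.41 without the top cells. Both choices added after the data had been seen were leaving out 1 cell of the alike pair, which kept the ratio of OSapop to OSalive for *Nr4a1* at -1.82, and leaving out cells of more than 10000 genes, which moved that of LOS to UOS to -1.70 and emptied *Nr4a3* in LOS. The cause of these shifts was not tested. *Nr4a2* and *Nr4a3* had 5 or fewer counts in UOS, MOS and plates 1 and 2, too few to order these groups. With genes of 10 or more counts, 17.2% in place of 11.3% of genes were lower in OSapop than in OSalive.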
